A study of Mus musculus with 6 samples.

Results

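Dendritic cell subset markers were examined in kidney arrays of MRL and LPR mice. They comprise 7 genes, *Flt3*, *Batf3*, *Zbtb46*, *Clec9a*, *Xcr1*, *Siglech* and *Cd209a*, and every array probe that carries one of these names. There were 15 such probes, of 56605 probes and 36870 gene names on the array. The LPR group was 3 female mice of the lupus-prone strain MRL/MpJ-Fas lpr/lpr, whose *Fas* gene carries the recessive lpr mutation in every cell. The MRL group was 3 female mice of the control strain MRL/MpJ, which shares the MRL background without that mutation. All 6 mice were 6 months of age and untreated, and each gave 1 array of whole kidney, so dendritic cells are a small part of the tissue measured. The comparison asks which dendritic cell transcripts differed between kidneys with and without lupus nephritis at the late stage.

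Dendritic cells take up antigen and present it to T cells. Conventional dendritic cells of the cDC1 type cross-present antigen to CD8+ T cells and depend on the transcription factors IRF8 and BATF3, whereas cDC2 cells mainly prime CD4+ T cells and use IRF4. Plasmacytoid dendritic cells (pDC) secrete type I interferon, a cytokine linked to lupus. In the kidney, dendritic cells lie in the interstitium next to macrophages, and many markers are shared between these lineages.

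Most of the results below turn on probe identity, so the 30 bases at the 3′ end of the 60-base probes that matter are given here as deposited. Positions are on mouse build mm9 (NCBI build 37). Whether each lies in an exon or a UTR was not analysed here. Both *Clec9a* probes lie close together on the plus strand, at chr6:129372492-129372551 and chr6:129372345-129372404.
Clec9a A_66_P103027: gttgaccttgtccattgtgccaaggaaaaa
Clec9a A_55_P2593238: gaaagatacaactcaaagctacctgttaca
The *Flt3* probes are on the minus strand, at chr5:148142576-148142635 and chr5:148174133-148174192, with starts 31557 bases apart. The first was designed on the RefSeq transcript NM_010229 and the second on the Ensembl transcript ENSMUST00000110549.
Flt3 A_66_P116412: ttctataaaatcaaacctctcctcgcacag
Flt3 A_66_P126155: taaacatatgtagtaaagtgtatttactgt
*Batf3* was measured by 1 probe at chr1:192932528-192932587 (plus strand) and *Xcr1* by 1 probe at chr9:123761482-123761541 (minus strand).
Batf3 A_51_P419286: cacactcaggagtttccctacacacctgtg
Xcr1 A_52_P490159: caaaaactgagaacttaggtccagcagtac
The single *Siglech* probe that could be tested lies at chr7:63034088-63034147 (plus strand). Its last 22 bases, in capitals, are a run of a 4-base repeat. Whether its other bases belong to a repeat was not analysed here.
Siglech A_55_P2141013: tctgtctcAAAGAAAGAAAGAAAGAAAGAA

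Of the 15 member probes, 12 could be tested, having a signal well above background in 3 or more of the 6 mice, and 10 had such a signal in all 6. Among the 12, limma called 5 higher in LPR mice and 1 lower at an adjusted p under 0.05, and 6 did not pass. The 5 include *Xcr1*, which could be tested only because of its signal in LPR mice. Over all 39924 tested probes, 6.53% were called higher and 6.17% lower. Higher probes were found for *Flt3*, *Batf3*, *Clec9a* and *Xcr1*, whereas no probe of *Zbtb46*, *Siglech* or *Cd209a* passed. All values below are log2 signals relative to the 75th percentile of the same array, so a probe below that percentile has a negative value, and a log2 change is LPR minus MRL. The median log2 change was 0.02 over the 12 member probes and -0.14 over all tested probes. In whole kidney, more cells of a type and more RNA per cell cannot be told apart.

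Correlations between arrays were 0.990 to 0.993 within groups and 0.961 to 0.971 between them, and 69.6 to 73.5% of spots were well above background. *Fas* itself was read by a probe with values of -0.37, -0.28 and -0.06 in MRL mice and -0.49, -1.25 and -0.37 in LPR mice, a change of -0.47 (SE 0.24, adjusted p = 0.234 by limma). Every LPR mouse was below every MRL mouse, but the difference did not pass. A weaker *Fas* probe, not well above background in any MRL mouse, was called at least 1.47-fold higher (adjusted p = 0.0338 by limma, and 0.0742 without the filter on dim probes). It was tested only because of its signal in LPR mice. With normexp background correction its change was 0.19 and did not pass (adjusted p = 0.189 by limma). Where these probes lie relative to the mutation was not analysed here.

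**Figure D1:**
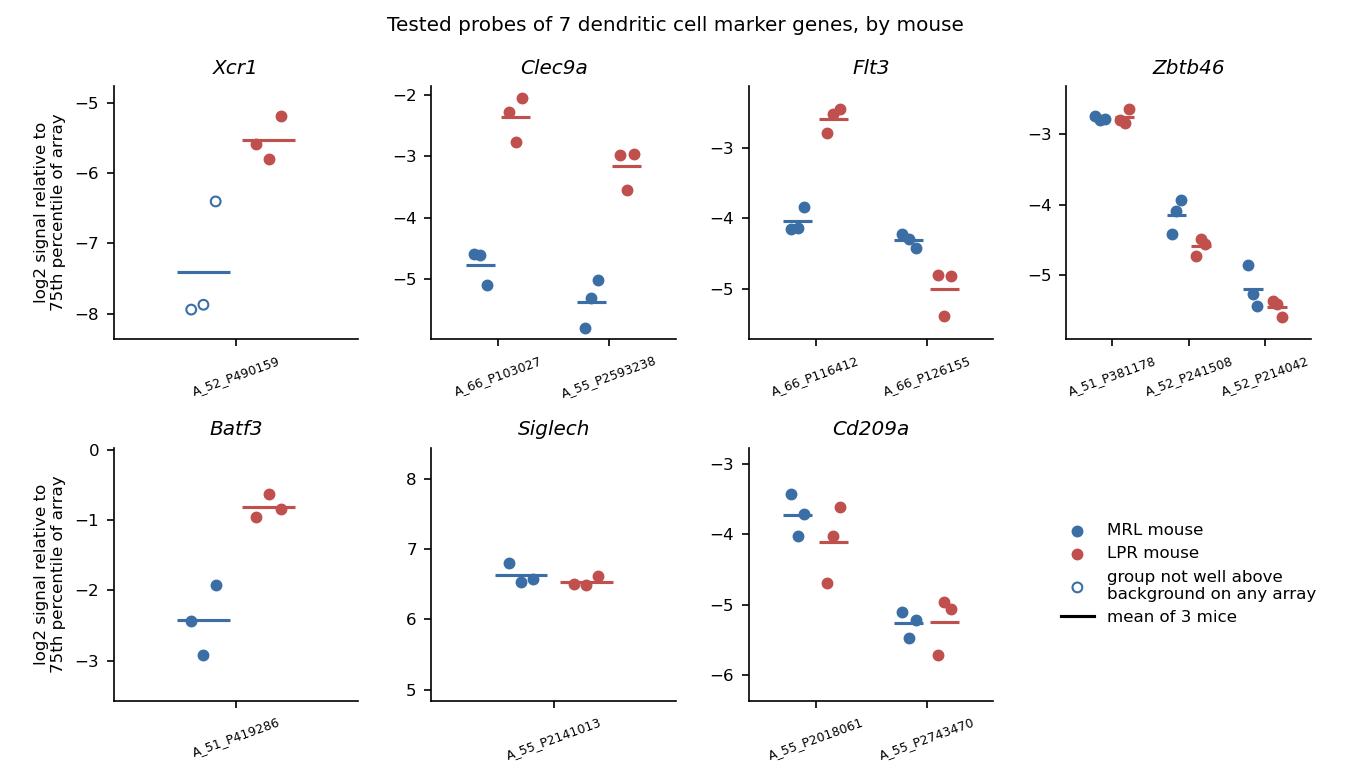
Log2 signal relative to the 75th percentile of the array (y axis) of each tested probe (x axis), with 1 point per mouse and a bar at the mean of 3 mice. The LPR mice sit above all MRL mice for 5 probes, of *Xcr1*, *Clec9a*, *Flt3* (A_66_P116412) and *Batf3*, and below them for the other *Flt3* probe and 1 *Zbtb46* probe. Open circles mark a group in which no array was well above background.

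*Flt3* encodes the receptor for the growth factor that drives dendritic cell development, and it is also present on early progenitors. The RefSeq probe A_66_P116412 read -4.15, -4.14 and -3.83 in MRL mice and -2.78, -2.52 and -2.45 in LPR mice. The groups did not overlap, and LPR mice were 2.74-fold higher (log2 change 1.46, SE 0.14, adjusted p = 0.000944 by limma), or 0.77 on the log2 scale with normexp background correction (adjusted p = 0.000568). The Ensembl probe A_66_P126155 moved the other way. It read -4.22, -4.29 and -4.42 in MRL mice and -4.80, -5.39 and -4.82 in LPR mice, with every LPR mouse below every MRL mouse. Its log2 change of -0.69 (SE 0.18, adjusted p = 0.0494 by limma) lay at the threshold and passed in 5 of 16 alternative analyses. When both probes were averaged, the *Flt3* change was 0.38 and did not pass (adjusted p = 0.0743 by limma). The direction given for *Flt3* therefore holds for the probe on the RefSeq transcript and not for the gene as a whole.

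The ligand of this receptor, *Flt3l*, rose by every one of its 3 probes. The brightest read -0.82, -0.86 and -0.87 in MRL mice and -0.18, -0.08 and 0.03 in LPR mice, 1.71-fold higher (log2 change 0.77, SE 0.10, adjusted p = 0.00410 by limma). The other probes of *Flt3l* changed by 0.81 and 0.51 (adjusted p = 0.0154 and 0.0382 by limma). The ligand and the RefSeq probe of the receptor were thus both higher in LPR kidneys. The sizes of these changes were not tested against each other.

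Among growth factors and receptors of dendritic cells, 9 of 10 listed genes were tested, and 7 were higher, 0 lower and 2 not passed (median log2 change 0.77). Over all 25805 tested gene names, each taken by its brightest tested probe, 7.12% were higher and 5.47% lower. *Csf2rb*, the shared receptor chain for GM-CSF, IL-3 and IL-5, changed by 3.18 (adjusted p = 1.35e-05 by limma), although another of its tested probes changed by 0.06 (adjusted p = 0.848). *Csf2rb2*, its close relative in mice, changed by 2.68, and the macrophage growth factor *Csf1* by 1.14 (adjusted p = 4.31e-05 and 0.00185 by limma). *Kitl* did not pass by its brightest probe, while another of its probes was called lower. The GM-CSF gene *Csf2* was well above background on 0 of 6 arrays and was not tested.

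*Batf3* encodes a transcription factor that cDC1 cells require, and activated T cells and other cells express it as well. Its values were -2.44, -2.91 and -1.93 in MRL mice and -0.95, -0.62 and -0.85 in LPR mice. The MRL mice spread over a wider range than the LPR mice, and the groups did not overlap. *Batf3* was 3.07-fold higher in LPR mice (95% interval 2.05 to 4.60; log2 change 1.62, SE 0.25, adjusted p = 0.00739 by limma).

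*Zbtb46* encodes a transcription factor of the conventional dendritic cell lineage, which endothelial cells also express. None of its 3 tested probes passed. The brightest, A_51_P381178, read -2.73, -2.80 and -2.78 in MRL mice and -2.79, -2.84 and -2.64 in LPR mice. These groups overlapped, and the change was 0.02 with a 95% interval of -0.23 to 0.26 (adjusted p = 0.930 by limma), so a rise of the size seen for *Batf3* lies outside the interval. A_52_P241508 read -4.41, -4.09 and -3.94 in MRL mice and -4.73, -4.49 and -4.56 in LPR mice. Its LPR values were all below its MRL values, as for 26.9% of all tested probes, and its change of -0.44 did not pass (SE 0.15, adjusted p = 0.103 by limma). A_52_P214042 changed by -0.26 (adjusted p = 0.329 by limma). The remaining *Zbtb46* probe, A_52_P652885, was well above background on 0 of 6 arrays.

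*Clec9a* encodes a lectin receptor of cDC1 cells that binds actin exposed on dead cells and directs their antigens to cross-presentation. Both of its probes were called higher. A_66_P103027 read -4.59, -4.61 and -5.09 in MRL mice and -2.27, -2.76 and -2.04 in LPR mice. All LPR mice were above all MRL mice, with a 5.30-fold difference (95% interval 3.67 to 7.66; log2 change 2.41, SE 0.22, adjusted p = 0.000734 by limma). A_55_P2593238 read -5.79, -5.31 and -5.02 in MRL mice, where 2 of 3 arrays were well above background, and -2.98, -3.55 and -2.95 in LPR mice. Its change of 2.21 (SE 0.24, adjusted p = 0.00165 by limma; 4.64-fold) lay within the interval of the first probe. With normexp background correction both calls held at smaller changes, of 1.20 and 0.80 (adjusted p = 6.79e-05 and 0.000536 by limma). The 95% intervals of both *Clec9a* probes, from 1.63 upwards, did not overlap those of any tested *Zbtb46* or *Cd209a* probe.

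*Xcr1* encodes the chemokine receptor that marks cDC1 cells. Its probe was not well above background on any MRL array and was so on all 3 LPR arrays. The measured values were -7.94, -7.87 and -6.41 in MRL mice and -5.59, -5.81 and -5.19 in LPR mice. Against the lowest signal well above background on each MRL array, the rise of *Xcr1* in LPR mice was at least 1.34-fold (limma, adjusted p = 0.0311). The probe met the filter on dim signals only through the LPR group, and that p rests on MRL values below the detection limit. Without the filter the adjusted p was 0.0693. The call was lost in 9 of 15 alternative analyses. It was lost when MRL mouse 1 or 2 or any single LPR mouse was left out (adjusted p = 0.0602 to 0.0924), and with normexp background correction the change was 0.07 (adjusted p = 0.655 by limma).

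*Xcl1*, the ligand of XCR1, is made by NK cells and CD8+ T cells. It was likewise not well above background in MRL mice (-6.98, -5.88 and -6.21) and was so in every LPR mouse (-4.06, -3.95 and -3.72). Its rise in LPR mice was at least 3.99-fold (adjusted p = 0.00185 by limma), with the same limit as for *Xcr1*, and the adjusted p was 0.00694 without the filter. With normexp background correction the log2 change of *Xcl1* was 0.47 (adjusted p = 0.0100 by limma). The bound of 3.99-fold therefore holds for the main background setting only.

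*Siglech* encodes a sialic acid-binding lectin that marks mouse pDC. The repeat-bearing probe A_55_P2141013 read 6.80, 6.53 and 6.57 in MRL mice and 6.50, 6.48 and 6.62 in LPR mice, far above the 75th percentile of every array. The groups overlapped, and the change was -0.10 (SE 0.12, 95% interval -0.38 to 0.17, adjusted p = 0.586 by limma). The other *Siglech* probes, A_55_P2141008 and A_55_P2734922, were well above background on 0 of 6 arrays and were not tested. Their processed signals were 5.74 to 11.9 and 2.49 to 8.59, against 65947 to 85277 for the repeat-bearing probe. Probes of 1 gene name thus lay at opposite ends of the signal range, in both groups.

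The sequence of the bright *Siglech* probe was compared with every other probe on the array. It shared a run of at least 20 bases with 4 probes of other genes, *Chat*, *Syne2*, *Coro2a* and *Samd11*, and no other member probe shared such a run with a probe of another gene. Mean values of these 4 probes over the 6 arrays were -4.88, -0.99, -2.68 and 6.26, so that only the *Samd11* probe was as bright. Across the array, 13 probes held the 12 bases GAAAGAAAGAAA, with a median of their mean values of -3.56. Whether the bright signal came from *Siglech* transcripts was not tested, and no statement on *Siglech* in these kidneys is drawn from it.

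*Cd209a* encodes a DC-SIGN relative found on cDC2 cells and on monocyte-derived dendritic cells. A_55_P2018061 read -3.42, -4.03 and -3.72 in MRL mice and -4.69, -4.02 and -3.61 in LPR mice. The groups overlapped, with LPR mouse 1 the lowest and MRL mouse 1 the highest, and the change of -0.39 had a 95% interval of -1.07 to 0.30 (adjusted p = 0.402 by limma). A_55_P2743470 changed by 0.02 (95% interval -0.49 to 0.53, adjusted p = 0.961 by limma). Of its CD209 relatives, *Cd209d*, *Cd209f* and *Cd209g* were tested and changed by -0.10, 0.51 and -0.05 without passing, and *Cd209b*, *Cd209c* and *Cd209e* were too dim to test.

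**Figure D2:**
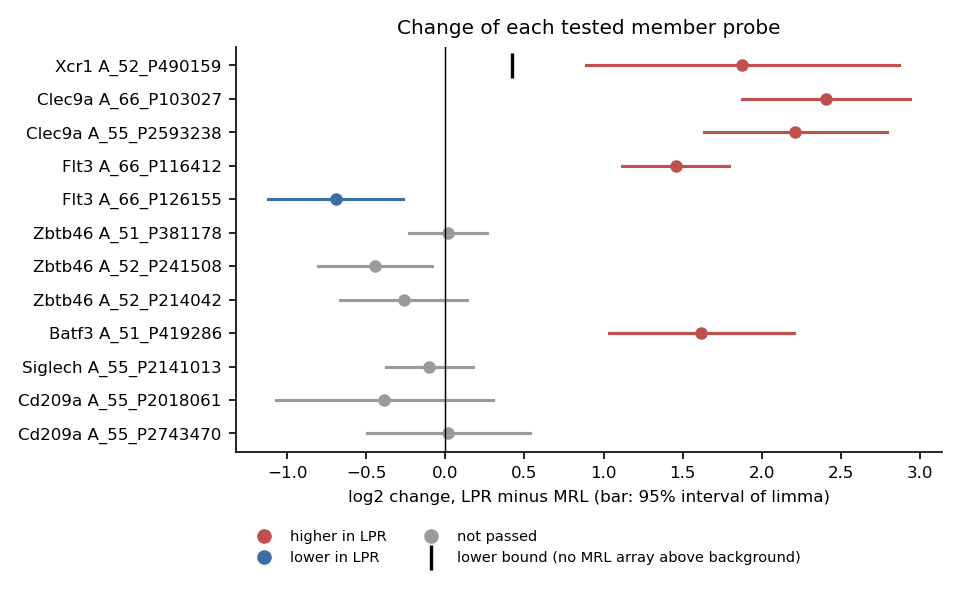
Log2 change of each tested member probe, LPR minus MRL (x axis), with its 95% interval from limma (n = 3 mice per group). The *Clec9a*, *Xcr1* and *Batf3* probes and *Flt3* A_66_P116412 lie between 1.46 and 2.41, *Flt3* A_66_P126155 lies at -0.69, and the probes of *Zbtb46*, *Siglech* and *Cd209a* lie between -0.44 and 0.02. The black tick is the lower bound for *Xcr1*, at 0.42.

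The 3 MRL arrays and that of LPR mouse 1 lay in the same row of the slide, and those of LPR mice 2 and 3 in the next. Within the shared row, the 5 higher probes differed by 1.26 to 2.49 and *Flt3* A_66_P126155 by -0.49. With the row as a block, the estimate is LPR mouse 1 against the 3 MRL mice, so the calls rest on 1 LPR mouse, assumed to vary like the others. On that footing limma kept both *Clec9a* probes (adjusted p = 0.0175 and 0.0232) and *Flt3* A_66_P116412 (0.0201). *Batf3* (0.0980), *Xcr1* (0.185) and *Flt3* A_66_P126155 (0.304) no longer passed. In all, 5 of the 12 tested probes had every LPR mouse above every MRL mouse and 2 had every LPR mouse below, against 11.0% and 26.9% of all tested probes.

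The program of cDC1 cells was described by 15 further genes, of which 6 were higher, 0 lower and 9 not passed (median log2 change 0.31). *Wdfy4*, which cDC1 cells need for cross-presentation, read -1.37, -1.10 and -1.44 in MRL mice and 1.37, 1.39 and 1.33 in LPR mice, a change of 2.67 (SE 0.12, adjusted p = 3.41e-05 by limma). *Rab7b*, a late endosomal GTPase, changed by 2.52, and *Ly75*, the antigen uptake receptor DEC-205, by 1.84 (adjusted p = 6.36e-05 and 0.00173 by limma). *Irf8*, the partner of *Batf3* in cDC1 development, changed by 1.57 (SE 0.15, adjusted p = 0.000923) and was higher by both of its probes. *Naaa*, a lysosomal amidase, changed by 1.14 (adjusted p = 0.00196). The 6 also include *Xcl1*, given above, which is the ligand of XCR1 rather than a marker of cDC1 cells. It was tested only because of its signal in LPR mice. The transcription factors *Id2* and *Nfil3*, the adhesion molecule *Cadm1*, the RNA sensor *Tlr3*, *Snx22*, *Cd8a* and *Cd24a* changed by -0.15 to 0.43 and did not pass. *Itgae* and *Ppt1* did not pass by their brightest probes, while another probe of each was called higher.

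For cDC2 cells, 13 of 14 listed genes were tested, and 7 were higher, 0 lower and 6 not passed (median 0.70). The inhibitory lectin *Clec12a* changed by 3.62, the transcription factor *Irf4* by 3.43 and the lectin *Clec10a* by 2.79 (adjusted p = 0.00449, 0.00133 and 5.49e-05 by limma). *Irf4* is also strongly expressed by plasma cells, and *Clec12a* by other myeloid cells. *Sirpa*, a surface marker of cDC2 cells and macrophages, changed by 0.73 (adjusted p = 0.0107). The integrin *Itgam* and the cDC2 regulators *Klf4* and *Notch2* changed by -0.09, 0.11 and 0.20 without passing.

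The pDC list held 18 genes, with 7 higher, 2 lower and 9 not passed (median 0.30). *Spib*, an ETS-family transcription factor, was 10.5-fold higher in LPR mice (log2 change 3.40, SE 0.14, adjusted p = 2.12e-05 by limma). *Bst2*, an interferon-induced surface protein, changed by 1.91, and *Ly6d* by 1.43 (adjusted p = 4.57e-05 and 0.00928). *Spib* and *Ly6d* are expressed by B cells too, and *Bst2* and *Irf7* (1.40) rise in many cells under interferon. *Tcf4*, the factor that defines pDC, was called in neither direction by any of its 6 probes, and its brightest probe changed by 0.05 (adjusted p = 0.877). The mean values of this *Tcf4* probe were 1.82 in MRL mice and 1.87 in LPR mice. Which kidney cells gave its signal was not tested. *Cox6a2*, a subunit of cytochrome c oxidase, fell by 1.58 (adjusted p = 0.0127) and *Upb1*, an enzyme of pyrimidine breakdown that the kidney itself expresses, fell by 0.41 (adjusted p = 0.0470).

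Mature and migratory dendritic cells were described by 15 genes, 14 of them tested, with 7 higher, 0 lower and 7 not passed (median 0.85). *Samsn1*, a signalling adaptor, changed by 3.03, the chemokine receptor *Ccr7* by 2.77 and the activation marker *Cd83* by 2.71 (adjusted p = 0.000366, 0.000947 and 7.95e-05 by limma). *Ccr7* guides mature dendritic cells to lymphoid tissue, and naive T cells and B cells carry it too. The costimulatory gene *Cd86* was higher by all 4 of its probes, with 2.47 by the brightest (adjusted p = 0.000549), whereas *Cd80* changed by -0.11 (adjusted p = 0.572). *Il12b* and *Ccl17* changed by 0.19 and 0.66 without passing, and *Ccl22* was not tested.

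Of the pan-dendritic markers and CD209 relatives, 10 of 13 were tested, with 4 higher, 0 lower and 6 not passed (median 0.80). *Itgax*, which encodes CD11c, read -2.70, -2.59 and -2.90 in MRL mice and 1.34, 0.95 and 0.99 in LPR mice, a 14.2-fold difference (log2 change 3.82, SE 0.15, adjusted p = 1.79e-05 by limma). Its other tested probe changed by 1.38 (adjusted p = 0.00615). The inhibitory receptor *Btla* changed by 3.42 and the macrophage sialoadhesin gene *Siglec1*, well above background in 1 of 3 MRL mice, by 2.78 (adjusted p = 9.81e-05 and 0.00117). *Dpp4* did not pass by its brightest probe, while another of its probes was called lower. Over all 6 lists, 85 genes, 79 were tested, 38 were higher, 2 lower and 39 not passed, and the median change was 0.51.

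**Figure D3:**
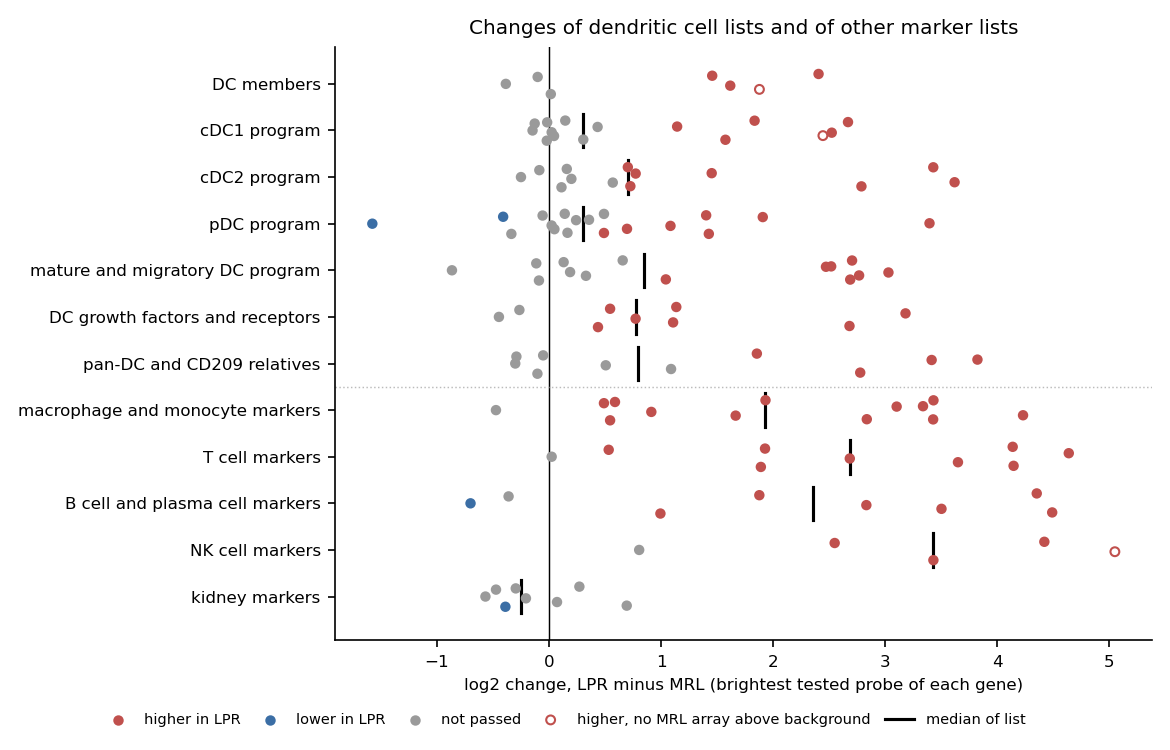
Log2 change of each tested gene by its brightest tested probe, LPR minus MRL (x axis), in the 7 members, the 6 dendritic cell lists and 5 lists of other cell types (y axis). Vertical bars are list medians, which run from 0.30 to 0.85 for the dendritic cell lists, from 1.93 to 3.43 for the lists of macrophages and lymphocytes, and lie at -0.25 for kidney markers. The lists were not matched for signal, and *Klk1* of the pDC list averaged 6.89 in MRL and 6.92 in LPR mice. The medians were not tested against each other. Open circles are genes not well above background on any MRL array, whose plotted change is no bound.

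Markers of other leukocytes were higher in the same LPR kidneys. Of 13 macrophage and monocyte markers, 12 were higher, led by the Fc receptor gene *Fcgr1* (log2 change 4.23) and the complement genes *C1qa* and *C1qc* (both 3.43). Their summed level, in multiples of the 75th percentile, was 83.5 to 96.0 in MRL mice and 152 to 170 in LPR mice, of which *Ly6c2* made up 56.5 to 76.4%. Without *Ly6c2* the sums were 19.7 to 23.9 and 60.6 to 66.6. The remaining macrophage marker, *Mertk*, changed by -0.47 and did not pass (adjusted p = 0.149 by limma). Every LPR mouse was below every MRL mouse for *Mertk*. Of 9 T cell markers, 8 were higher, led by *Cd2* (4.64), *Cd3g* (4.15) and *Cd3d* (4.14), with sums of 2.72 to 3.20 and 11.8 to 13.8. Of 8 B cell and plasma cell markers, 6 were higher and 1 lower. *Jchain* and *Mzb1* changed by 4.49 and 4.35, and *Ms4a1* by -0.70 (adjusted p = 0.0497 by limma), although its other probe was called higher. The sums were 3.00 to 5.10 and 49.5 to 97.3, of which *Jchain* made up 60.2 to 88.1%, and 1.19 to 1.40 and 6.92 to 12.5 without it.

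Of 6 NK cell markers, 5 were tested and 4 were higher, with sums of 0.184 to 0.280 and 3.61 to 4.43, mostly from *Nkg7*. *Klra8*, detected in LPR mice alone, rose at least 11.2-fold, *Nkg7* and *Eomes* changed by 4.42 and 3.43, and *Klrb1c* was too dim to test. Among 7 progenitor markers, 5 were tested and 2 were higher, *Il7r* (3.86) and *Mpo* (0.65), with sums of 8.28 to 8.58 and 9.56 to 10.3, mostly from *Cd34*, and *Rag1* and *Rag2* were too dim to test. Of 8 kidney markers, 0 were higher and 1 lower, the proximal tubule receptor gene *Lrp2* (-0.39), with sums of 608 to 640 and 500 to 531. The part of these cells in the values of *Batf3*, *Flt3*, *Itgax* or the other shared genes was not tested.

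The members were also set against *Ptprc*, the pan-leukocyte gene CD45, within each mouse. The result depended on which *Ptprc* probe was used. The brightest probe, A_55_P2716276, changed by 0.39 and did not pass (adjusted p = 0.137 by limma), whereas the 5 other tested *Ptprc* probes were all called higher. The other genes listed as leukocyte references, *Coro1a*, *Laptm5* and *Cd53*, changed by 2.86, 2.38 and 3.75 and were each called higher. The members were not set against these genes. Relative to the brightest *Ptprc* probe, *Clec9a* A_66_P103027 changed by 2.02, *Batf3* by 1.23 and *Flt3* A_66_P116412 by 1.07 (SE 0.24, 0.36 and 0.26). With normexp background correction these were 0.81, 0.84 and 0.38. Relative to A_52_P677117, the brighter of the RefSeq probes, which itself changed by 2.75, the same differences were -0.34, -1.13 and -1.29 (SE 0.42, 0.47 and 0.41), so the sign turned. The difference of *Clec9a* A_66_P103027 was smaller than its SE. The other *Clec9a* probe, A_55_P2593238, changed by -0.54 relative to A_52_P677117 (SE 0.18), and its groups did not overlap. The groups overlapped for *Clec9a* A_66_P103027 and *Batf3* but not for *Flt3* A_66_P116412. The values of *Zbtb46* A_51_P381178 were -0.37 relative to the brightest *Ptprc* probe and -2.73 relative to A_52_P677117 (SE 0.15 and 0.38). With 3 against 3 mice the smallest two-sided exact permutation p is 0.1, and none of these differences could pass. The second *Ptprc* probe was chosen after its values were seen.

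**Figure D4:**
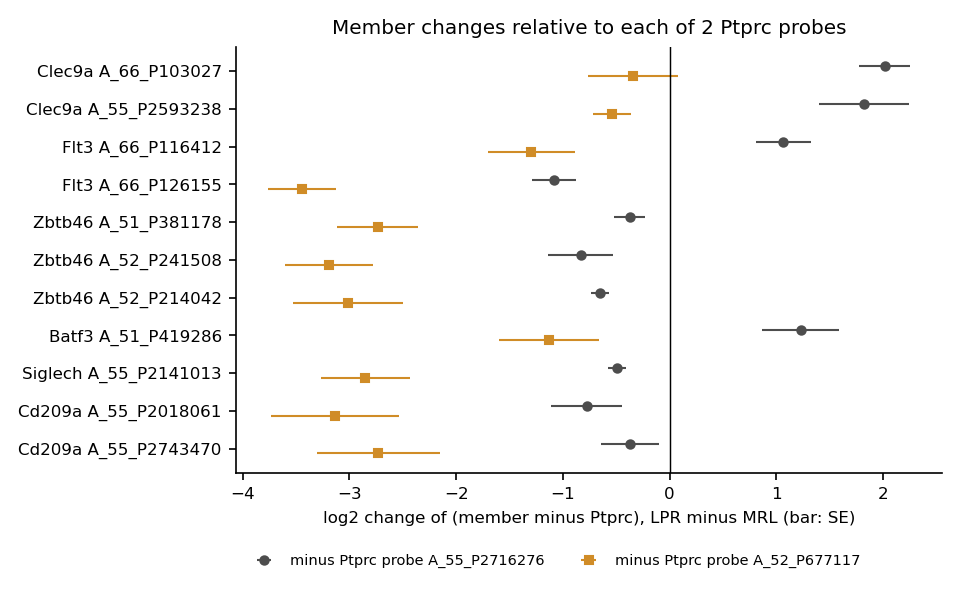
Log2 change of the member probe minus a *Ptprc* probe, LPR minus MRL (x axis), with SE (n = 3 mice per group), for the 11 tested member probes that were well above background in both groups. Circles use the brightest *Ptprc* probe, squares use the RefSeq probe A_52_P677117, and *Clec9a*, *Batf3* and *Flt3* A_66_P116412 lie above 0 with the circles and below 0 with the squares.

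For each member but *Xcr1*, the probes of other genes with the most similar values over the 6 arrays were found among 30373 to 30375 tested probes that carry a gene symbol, rather than a transcript or locus identifier, and were well above background on all arrays, as a description that mostly follows the group difference. *Clec9a* was closest to *Lbp* (Pearson r = 0.999), *Mrc1* and *Treml2* (both 0.998). *Flt3* A_66_P116412 was closest to *Hcst* (0.999), *Cd79b* and *Cxcr6* (both 0.998). *Batf3* was closest to *Cd300c* (0.997), *Plekha2* (0.995) and *Prune2* (0.993). No such genes are given for *Xcr1*, whose MRL values lie below the detection limit. *Mrc1* encodes the macrophage mannose receptor, *Cd79b* a B cell receptor chain and *Cxcr6* a chemokine receptor of T cells, and these changed by 2.65, 2.83 and 2.46. *Zbtb46*, *Siglech* and *Cd209a* were closest to *Zfp951* (0.984), *Sept6* (0.993) and *Ptbp2* (0.987), which changed by 0.03, -0.09 and -0.13.

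Motifs of factors that act in dendritic cells were searched in the 250 bases upstream of each member's gene start, as given by RefSeq for build GRCm38.p6, where all 7 symbols matched. The AP-1 motif bound by BATF factors, TGANTCA on either strand, was in 1 of the 7, that of *Zbtb46*, and in 6.75% of 32851 promoters. The PU.1 motif GAGGAAG was in 1 of the 7, that of *Batf3*, and in 10.6% of promoters, and the interferon regulatory factor motif, GAAA followed after 2 bases by another GAAA, was in 0 of 7 and in 2.98%. Both promoters with a match are shown, with the motif in capitals. The *Batf3* stretch is chr1:191098164-191098413 (plus strand) and the *Zbtb46* stretch chr2:181424389-181424638 (minus strand).
Batf3: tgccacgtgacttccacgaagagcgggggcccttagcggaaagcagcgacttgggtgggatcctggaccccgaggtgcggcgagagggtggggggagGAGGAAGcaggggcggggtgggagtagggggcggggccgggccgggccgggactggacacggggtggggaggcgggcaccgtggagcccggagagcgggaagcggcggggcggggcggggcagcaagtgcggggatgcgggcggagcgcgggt
Zbtb46: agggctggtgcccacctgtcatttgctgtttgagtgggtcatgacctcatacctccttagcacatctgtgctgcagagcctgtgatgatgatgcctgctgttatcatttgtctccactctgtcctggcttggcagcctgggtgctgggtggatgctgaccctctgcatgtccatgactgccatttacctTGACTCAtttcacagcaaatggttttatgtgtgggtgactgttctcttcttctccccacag
The motif starts 153 bases upstream of the gene start in *Batf3* and 61 bases upstream in *Zbtb46*. The promoters of the other 5 members held none of the 3 motifs in this window.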

How the data were processed

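Total RNA of whole kidney from 3 MRL and 3 LPR mice was labelled with Cy3 and hybridized to Agilent SurePrint G3 mouse arrays, 1 mouse per array and all 6 on 1 slide. The labels name a column kit for the RNA isolation and the paper names TRIzol. The authors deposited, for each spot, the intensity from Feature Extraction 12.0.3.1, background-subtracted and not normalized between arrays. They also deposited a table of the ratio of these intensities to a constant near the 75th percentile of each array, used as an alternative.

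The intensities were converted to log2, and each array's 75th percentile over its 59305 spots that are not controls (706 to 942 in intensity) was subtracted. The 73 to 90 outlier spots of each array were left out, spots of 1 probe were averaged, and no spot was saturated. A probe was tested if well above background on at least 3 of 6 arrays. LPR was tested against MRL, as labelled, with limma 3.58.1 (R 4.3.3), and p-values were adjusted by Benjamini-Hochberg over 39924 probes at a threshold of 0.05. The brightest tested probe stands for a gene. For a bound, each MRL value below its array's detection limit (the lowest signal that was well above background) was replaced by that limit before the mean log2 values were compared. The script was tested on simulated data. The number of arrays limits the precision.

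The members, lists and tests were chosen with earlier results of these data known. Named were every member probe and, of each list, the 3 largest rises and 2 largest falls among the calls, except for a gene that is not reported here. Other list genes were named to account for the list, after their values were seen. For likeness, probes named only by a transcript or locus identifier were left out. Likeness was Pearson's r over the 6 arrays. Of the member probes, 11 carry a RefSeq identifier, and all 11 matched the same current symbol. Alternatives were normexp (offset 50), quantile normalization, the authors' ratios, no filter or a filter on all 6 arrays, outlier spots kept, the mean of a gene's probes, the methods' t test, slide column, slide row and replicate number as blocks, and each mouse left out. The slide row was added after the data were seen.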

Additional observations from a re-analysis of the deposited data

How the results depend on the processing

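No called member probe changed direction in any alternative run. Both *Clec9a* probes passed in every alternative in which they were tested, and *Flt3* A_66_P116412 in all but the mean of both *Flt3* probes. With normexp their changes shrank from 2.41, 2.21 and 1.46 to 1.20, 0.80 and 0.77. The higher member probes numbered 5, 4 to 5 with a mouse left out, and 3 with the filter on all 6 arrays, the methods' t test and the slide row as a block, which rests on 1 LPR mouse. *Batf3* was lost with the t test (adjusted p = 0.0616) and the row block (0.0980), and *Xcr1* with both. The single lower member probe, of *Flt3*, was called 0 times with the authors' ratios, no filter, the t test, and the slide column, slide row or replicate block, and 0 to 1 times with a mouse left out, passing only without LPR mouse 2 (adjusted p = 0.0420).

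Over all tested probes, 2606 were higher and 2462 lower. The higher numbered 1736 with the t test and 1458 with the row block. The lower depended more on the setting, with 4498 for normexp, 1093 without the filter, 1386 for the t test, 973 for the column block, 463 for the row block and 760 to 2269 with a mouse left out. Of the dendritic cell list genes, 38 were higher, and 27 to 40 in the alternatives. The 2 lower ones were 1 without the filter, with the t test, the column block or the replicate block, 0 with the row block, and 1 to 2 with a mouse left out. The cause of these changes was not tested. The scaling alternatives moved the median change of all probes by at most 0.02.

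Replicate numbers did not pair the mice, since deviations of mice with the same number correlated by 0.115, 0.020 and 0.005, and only number 1 matched itself best. With the replicate block the lower probes numbered 1117, and 5 member probes stayed higher. Dim probes such as *Xcr1* have only a bound in MRL mice, and arrays of 3 mice per group limit every interval.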
